A study of Mus musculus with 6 samples.

Results

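Myosin light chains and the kinases that phosphorylate them were followed in C2C12 myotubes, through 10 genes chosen by symbol of the 24411 in the count files. Myl1, Myl3, Myl4 and Myl6b encode essential light chains, Myl2 and Mylpf encode regulatory light chains, and Mylk, Mylk2, Mylk3 and Mylk4 encode light chain kinases. Libraries of 2 groups were compared: 3 from wild-type myotubes that had finished differentiating and were given 10 µM Sardomozide for 72 h, and 3 from such myotubes given the solvent DMSO for 72 h. C2C12 is an immortalised mouse myoblast line that fuses into myotubes when serum is lowered, and the labels name no nerve or other tissue in the culture. Sardomozide inhibits S-adenosylmethionine decarboxylase, the polyamine-synthesis enzyme encoded by Amd1. Nothing in the labels tells whether replicate libraries are separate cultures, so the p-values below weigh differences against a spread that could be purely technical.

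Muscle myosin is a hexamer in which each heavy chain carries an essential and a regulatory light chain around its lever arm. The essential chain supports the lever arm, and fast, slow and embryonic forms come from separate genes. The regulatory chain can be phosphorylated near its N-terminus by calcium-calmodulin-dependent myosin light chain kinases. In striated muscle that mark is known to raise force at a given calcium level, and in smooth muscle it switches contraction on.

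With Sardomozide, 3 of the 4 kinase genes fell, and Mylk3, the cardiac-type kinase gene, had the largest fall of the 9 genes tested, 57.3%. Mylk2, the skeletal muscle kinase gene, fell by 36.8% and Mylk4 by 36.0%, whereas Mylk, the kinase gene of smooth and non-muscle cells, did not pass the test. Among the light chains, Myl4, the embryonic and atrial essential chain, fell by 28.7%. The abundant fast chains Myl1 and Mylpf, and also Myl2 and Myl6b, did not pass. Of the 10 genes 9 passed the filter on low counts, and Myl3, the slow and ventricular essential chain, did not. Of these 9, 0 rose and 4 fell at an adjusted p under 0.05 in edgeR's quasi-likelihood test, against 16.3% of the 13076 genes tested that changed in either direction (7.88% higher and 8.45% lower). Falls of at least 1.5-fold that passed were seen for Mylk2, Mylk3 and Mylk4 and for 1.33% of all genes tested. At an unadjusted p under 0.05, 1 of the 9 was higher (Myl1) and 7 were lower. Of all 13076 genes tested, 1898 were higher and 1973 lower at that unadjusted threshold. DESeq2 and limma-voom each called 1 rise among the 9, that of Myl1, and 5 falls. Over all genes, DESeq2 called 963 rises and 1087 falls, and limma-voom 952 rises and 1077 falls. The median log2 fold change of the 9 genes was −0.40, against −0.00082 over all genes tested. The groups did not overlap for 5 of the 9 genes, against 33.5% of all genes tested. In RNA from whole cultures, fewer cells of one kind and less RNA per cell cannot be told apart.

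Library totals ran from 30820423 to 36709804 counts with Sardomozide and from 25496323 to 32108033 with DMSO. The 10 genes together held 0.527% to 0.552% of the counts with Sardomozide and 0.548% to 0.592% with DMSO. A count of 0 allows up to 3 counts in a library, or 0.0817 to 0.118 CPM (counts scaled to a common library size), and this limit covers counting error only. Amd1 itself had 0, 0 and 0 counts with Sardomozide and 0, 3 and 0 with DMSO, so its values cannot be used to check the labels. Absence of its transcript and loss of its reads in counting cannot be told apart here. The labels call the cells myotubes in the titles and myoblasts in a cell type tag. Of 10 myotube markers 8 were matched by symbol and tested, of which Myog rose and Cacna1s fell. Among all genes tested 7.88% were higher and 8.45% lower. The myotube list summed to 10726 to 13778 CPM with Sardomozide and 11058 to 11721 CPM with DMSO. Acta1, the skeletal actin gene, stood at 4810 ± 97.5 CPM with Sardomozide and 4783 ± 185 CPM with DMSO (SD, n = 3 each). Pax7, a gene of undifferentiated muscle cells, had 93.4 ± 6.34 CPM with Sardomozide and 87.5 ± 2.38 CPM with DMSO and did not pass. One library stood apart in a marker: Ttn, the titin gene, had 1610, 4043 and 1372 CPM with Sardomozide and 1745, 1726 and 1500 CPM with DMSO. Without that library, Sardomozide replicate 2, there were again 4 falls and 0 rises among the 9 genes, against 990 falls and 877 rises over all genes. Without Sardomozide replicate 1, 7 of the 9 fell instead of 4, while 1025 genes fell over all genes. Without DMSO replicate 2, 1 of the 9 rose (Myl1), while 738 genes rose over all genes.

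The 300-base windows around annotated start sites are printed for 3 of the genes that fell and for Mylpf, the gene with the highest level, so that the letters near their starts can be compared. The sequences are those of RefSeq on GRCm38.p6, each on the strand of its gene, from 250 bases before the start to 50 after it. Of the 10 genes 9 had a window, with 11 windows in all, and capitals mark each E-box (CANNTG, the core letters that myogenic factors bind) and each MEF2 site.
Myl4, chr11:104550413-104550712, plus strand: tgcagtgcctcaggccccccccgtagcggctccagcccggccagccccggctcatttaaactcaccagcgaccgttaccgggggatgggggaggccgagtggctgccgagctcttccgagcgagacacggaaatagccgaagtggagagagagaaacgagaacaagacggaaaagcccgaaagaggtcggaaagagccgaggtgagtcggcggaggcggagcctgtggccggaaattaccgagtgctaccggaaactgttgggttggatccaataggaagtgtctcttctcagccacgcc
Mylk3 (upstream start), chr8:85380992-85381291, minus strand: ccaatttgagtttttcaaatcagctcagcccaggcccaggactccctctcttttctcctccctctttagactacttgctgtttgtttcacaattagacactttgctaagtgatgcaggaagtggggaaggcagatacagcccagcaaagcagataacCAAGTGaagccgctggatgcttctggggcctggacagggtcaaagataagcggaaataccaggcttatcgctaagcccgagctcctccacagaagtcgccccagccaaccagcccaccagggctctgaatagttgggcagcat
Mylk4, chr13:32783915-32784214, minus strand: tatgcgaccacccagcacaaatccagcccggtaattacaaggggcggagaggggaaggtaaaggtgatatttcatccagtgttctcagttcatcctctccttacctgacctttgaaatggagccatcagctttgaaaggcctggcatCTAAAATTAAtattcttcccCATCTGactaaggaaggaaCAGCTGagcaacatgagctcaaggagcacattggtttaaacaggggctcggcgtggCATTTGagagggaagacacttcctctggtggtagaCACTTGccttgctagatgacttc
Mylpf, chr7:127211358-127211657, plus strand: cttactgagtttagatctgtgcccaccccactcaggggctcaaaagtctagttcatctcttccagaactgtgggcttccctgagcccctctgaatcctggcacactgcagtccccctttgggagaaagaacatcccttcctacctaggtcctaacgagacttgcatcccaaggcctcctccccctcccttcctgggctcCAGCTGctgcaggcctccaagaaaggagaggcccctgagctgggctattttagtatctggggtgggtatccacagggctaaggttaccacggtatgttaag

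The motifs were searched on both strands, and CANNTG and the MEF2 site read the same on either. The Mylk4 window held 4 E-boxes and a MEF2 site, which begins at base −103 counted from the start. The Mylpf window held 1 E-box, of the form CAGCTG, at −51, the Mylk3 window held CAAGTG at −93, and the Myl4 window held neither motif. A second Mylk3 start has a window (chr8:85365275-85365574) with no E-box or MEF2 site. Over all 11 windows, 8 held an E-box, against 72.3% of all 32851 annotated windows. CAGCTG, which is 1 form of the E-box, was in 5 windows, against 16.3%. These 5 windows belonged to 4 genes: Myl1, Myl2 with both of its windows, Mylk4 and Mylpf. Of the genes that fell, only Mylk4 is among them, and Mylk2 had no window. Both Myl2 windows end before the gene start at 122100951 used here. A MEF2 site was in 1 window, that of Mylk4, against 3.19% of all windows. A match describes letters only, and no binding was measured here.

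Levels of different genes are compared as CPM per kilobase of the longest coding transcript, since long transcripts collect more reads. Mylpf led with 3098 ± 47.1 CPM per kb with Sardomozide and 3008 ± 132 with DMSO (SD, n = 3 each, as for all values of this paragraph). By its mean over the 6 libraries it ranked 4 among 19916 genes with a coding length, while Myl1 ranked 10 and Myl4 ranked 17. Myl1 had 1558 ± 17.7 CPM per kb with Sardomozide and 1421 ± 84.1 with DMSO. The embryonic chain Myl4 had 1028 ± 79.1 with Sardomozide and 1441 ± 64.6 with DMSO. With DMSO the libraries of Myl4 and Myl1 overlapped in level, whereas with Sardomozide every library had more Myl1 than any had of Myl4. The overlap depends on the length used. Not divided by length, Myl1 had 1476 to 1642.5 CPM with DMSO and Myl4 had 1298 to 1419.8 CPM. Myl6b followed with 207 ± 21.1 CPM per kb with Sardomozide and 231 ± 3.12 with DMSO. Myl2 stood far below, at 14.1 ± 3.04 with Sardomozide and 18.5 ± 2.24 with DMSO. The kinases lay below Myl2 on average, and Mylk2, the highest of them, had 10.4 ± 0.77 CPM per kb with Sardomozide and 16.4 ± 1.03 with DMSO. Mylk4 had 8.36 ± 0.133 with Sardomozide and 13.1 ± 0.516 with DMSO. Mylk had 5.46 ± 0.409 with Sardomozide and 6.02 ± 0.313 with DMSO. Mylk3 was the lowest kinase, at 1.96 ± 0.431 with Sardomozide and 4.59 ± 0.521 with DMSO. Neighbours in this order did not overlap between libraries of either group, apart from Myl4 and Myl1, and Myl2 and Mylk2, with DMSO.

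**Figure D1:**
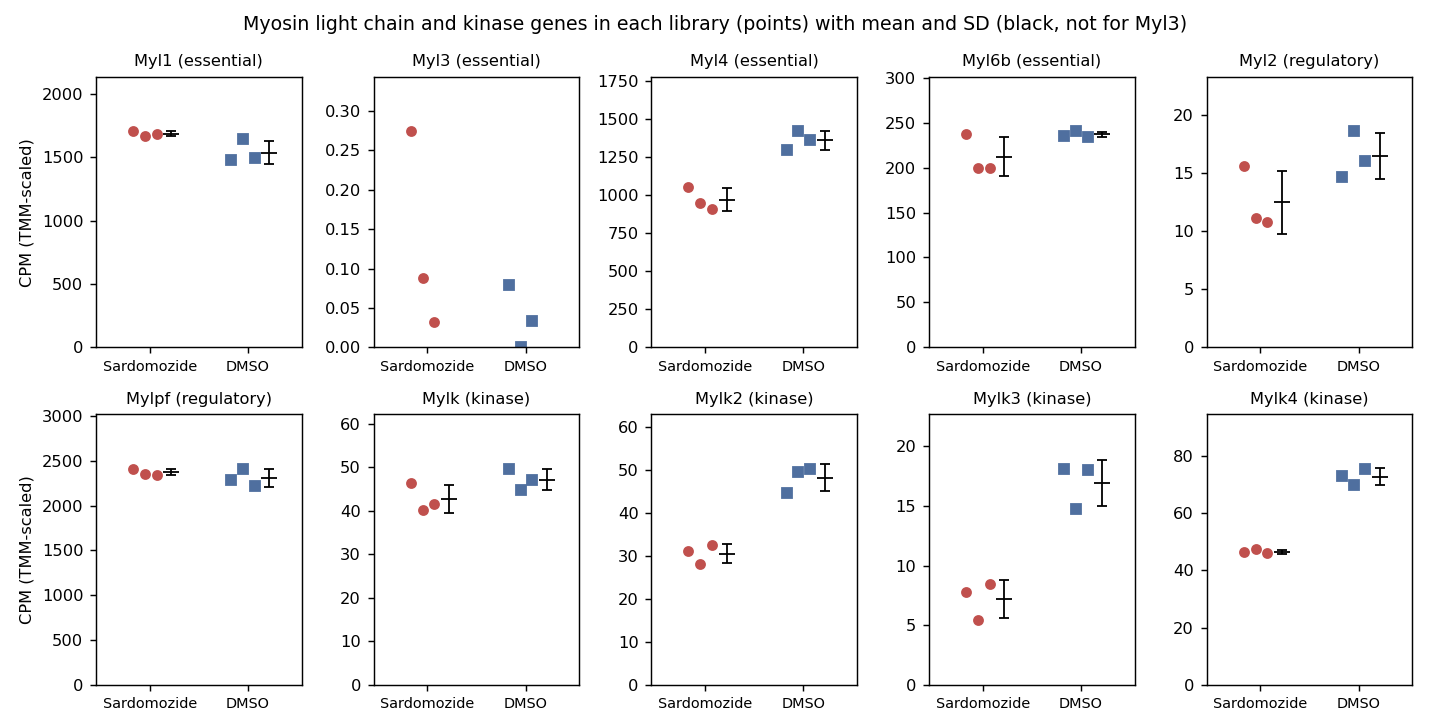
CPM of each of the 10 genes in each library (vertical axes, each from 0), with Sardomozide on the left as circles and DMSO on the right as squares, and the mean and SD of 3 libraries in black, left out for Myl3, which had 10 counts at most. Myl4, Mylk2, Mylk3 and Mylk4 lie lower in all 3 Sardomozide libraries than in any DMSO library, and Myl1 lies higher.

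Among the essential light chains, Myl4 (chromosome 11, 104550663 to 104595753, GRCm38) had 1052, 950.0 and 906 CPM in the Sardomozide libraries, against 1298, 1419.8 and 1360.0 CPM in the DMSO libraries. The highest Sardomozide library lay below the lowest DMSO library. The fall was −0.49 ± 0.053 on the log2 scale (SE; edgeR adjusted p = 4.37e-06), and 4.81% of all genes tested had a lower log2 fold change. Myl1 (chromosome 1, 66924295 to 66945404) encodes the fast essential chain, with a long and a short isoform from separate promoters that gene counts do not separate. It had 1707, 1669 and 1682 CPM in the Sardomozide libraries, against 1476, 1642.5 and 1495 CPM in the DMSO libraries. All 3 Sardomozide libraries were above the DMSO libraries, but the difference did not pass (log2 fold change 0.13 ± 0.047, edgeR adjusted p = 0.0597). Its 95% interval, unadjusted, ran from 0.034 to 0.23 on the log2 scale, a rise of 2.4% to 17.3%. It passed without DMSO replicate 2 (0.18 on the log2 scale, adjusted p = 0.0208) and with DESeq2, limma-voom and no low-count filter, and its adjusted p over all alternatives ran from 0.0208 to 0.26.

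Myl6b (chromosome 10, 128494157 to 128498685), an essential chain of slow muscle and non-muscle cells, had 237, 199 and 199.6 CPM in the Sardomozide libraries, against 235, 240.4 and 234 CPM in the DMSO libraries. Sardomozide replicate 1 lay among the DMSO libraries and the other two lay below them. The difference did not pass (log2 fold change −0.16 ± 0.057, edgeR adjusted p = 0.0702; unadjusted 95% interval −0.28 to −0.038). It passed without Sardomozide replicate 1 (−0.25 on the log2 scale, adjusted p = 0.000436) and with no low-count filter (adjusted p = 0.0143), and over all alternatives the adjusted p ran from 0.000436 to 0.23. Myl3 (chromosome 9, 110741861 to 110769798) had 10, 3 and 1 counts in the Sardomozide libraries, against 2, 0 and 1 counts in the DMSO libraries. A single library, Sardomozide replicate 1, exceeded the 3 counts that a count of 0 allows, so no fold is given and a difference was not detectable at this depth.

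Among the regulatory light chains, Mylpf (chromosome 7, 127208890 to 127214298), the fast skeletal chain, had 2414, 2358 and 2347 CPM in the Sardomozide libraries, against 2284, 2413.7 and 2214 CPM in the DMSO libraries. The groups overlapped (log2 fold change 0.043 ± 0.045, edgeR adjusted p = 0.58), and the unadjusted 95% interval of the difference ran from −3.54% to 9.99%. Myl2 (chromosome 5, 122100951 to 122113472), the slow and ventricular chain, had 15.6, 11.1 and 10.8 CPM in the Sardomozide libraries, against 14.7, 18.6 and 16.1 CPM in the DMSO libraries. Sardomozide replicate 1 lay above the lowest DMSO library, and the other two lay below all of them. The difference did not pass (log2 fold change −0.40 ± 0.14, edgeR adjusted p = 0.0608), with an unadjusted 95% interval from −37.9% to −7.08%. Myl2 passed without Sardomozide replicate 1 (−0.59 on the log2 scale, adjusted p = 0.00161) and with DESeq2, limma-voom and no low-count filter, and the adjusted p ran from 0.00161 to 0.212 over all alternatives.

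Among the kinases, Mylk3 (chromosome 8, 85324303 to 85386345) had 283, 186 and 265 counts in the Sardomozide libraries, against 461, 473 and 536 counts in the DMSO libraries. Scaled, these were 7.76, 5.43 and 8.48 CPM with Sardomozide, against 18.1, 14.7 and 18.0 CPM with DMSO. Every Sardomozide library was far below every DMSO library (log2 fold change −1.23 ± 0.14, edgeR adjusted p = 2.30e-05), and 0.589% of all genes tested had a lower log2 fold change. Mylk3 is known as the main light chain kinase of cardiac muscle. Of 7 markers of cardiomyocytes, Myl7 had 0 counts in all 6 libraries, and Nppa, Nppb, Ryr2 and Hcn4 did not pass the filter on low counts. The 2 that were tested were Tnni3 and Myh6. Tnni3 had 0.857 CPM with Sardomozide and 1.39 CPM with DMSO on average and did not pass. Myh6 fell (log2 fold change −1.13, edgeR adjusted p = 0.00292). The 7 markers summed to 13.1 to 19.5 CPM with Sardomozide and 30.8 to 35.1 CPM with DMSO, most of it Myh6, and their part in the Mylk3 result was not tested.

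Mylk2 (chromosome 2, 152911352 to 152923068) encodes the kinase of skeletal muscle that phosphorylates the fast regulatory chain. It had 31.1, 28.1 and 32.6 CPM in the Sardomozide libraries, against 44.8, 49.7 and 50.4 CPM in the DMSO libraries. The groups did not overlap (log2 fold change −0.66 ± 0.068, edgeR adjusted p = 1.52e-06). Mylk4 (chromosome 13, 32700834 to 32783954), a further member of the family, had 46.3, 47.4 and 45.9 CPM in the Sardomozide libraries, against 72.9, 69.9 and 75.6 CPM in the DMSO libraries. The Sardomozide libraries lay close together and well below the DMSO libraries (log2 fold change −0.64 ± 0.053, edgeR adjusted p = 6.81e-08).

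Mylk (chromosome 16, 34745210 to 35002420) gives a long kinase, a short kinase and the kinase-free protein telokin, which gene counts do not separate. It had 46.3, 40.3 and 41.5 CPM in the Sardomozide libraries, against 49.7, 44.8 and 46.99 CPM in the DMSO libraries. The groups overlapped and the difference did not pass (log2 fold change −0.14 ± 0.064, edgeR adjusted p = 0.147; unadjusted 95% interval −0.28 to −0.0067). It passed without Sardomozide replicate 1 (−0.20 on the log2 scale, adjusted p = 0.0411), and over all alternatives the adjusted p ran from 0.0411 to 0.419. Of 6 smooth muscle markers, 5 were tested and 2 fell, Tagln and Smtn, against 8.45% lower among all genes tested. Smtn lost its call without Sardomozide replicate 2 or 3 or DMSO replicate 1 or 3. The list summed to 3598 to 3718 CPM with Sardomozide and 3650 to 3870 CPM with DMSO. Most of it was Acta2, which did not pass (2978 ± 41.0 CPM with Sardomozide and 2953 ± 93.8 CPM with DMSO). Myh11, which defines that cell type, was at 0.188 ± 0.0318 CPM with Sardomozide and 0.239 ± 0.0556 CPM with DMSO (SD, n = 3 each). The part of these markers in the Mylk value was not tested. Some genes overlap the 10 genes on the opposite strand, Pth1r at Myl3 and Ccdc63 at Myl2 among them, and the use of strand in counting is not given in the sources used here.

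**Figure D2:**
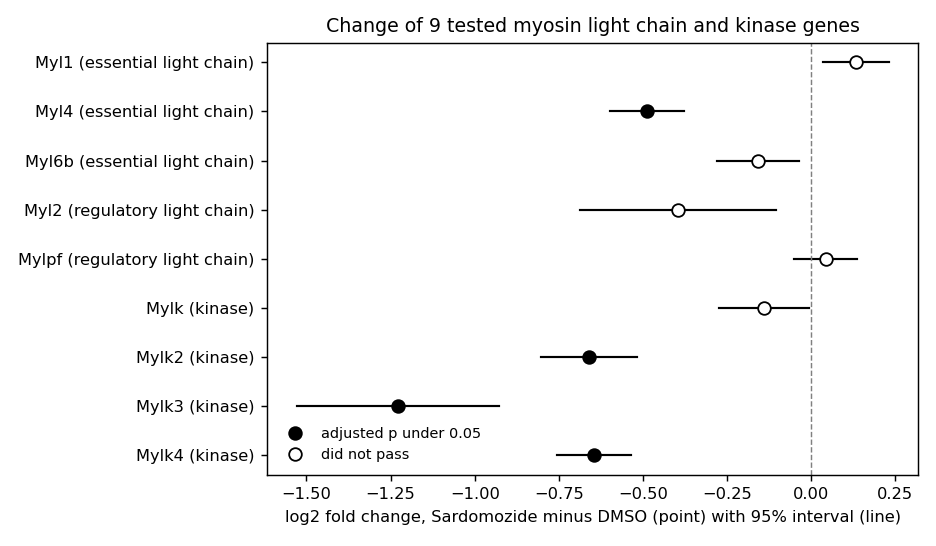
Log2 fold change (Sardomozide minus DMSO, horizontal axis) of the 9 genes that passed the low-count filter, with the unadjusted 95% interval as a line. Filled points passed edgeR's test at an adjusted p under 0.05: they are Myl4 at −0.49, Mylk2 at −0.66, Mylk3 at −1.23 and Mylk4 at −0.64.

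Ratios within a library do not depend on library scaling, and 11 of them were compared with two-sided exact permutation tests, where 0.1 is the smallest p that 3 against 3 libraries allow. Myl4 made up 36.8 ± 1.34% of the length-scaled essential light chain transcripts with Sardomozide and 46.6 ± 0.56% with DMSO (SD, n = 3 each), without overlap (exact p = 0.1, 0.138 after Benjamini-Hochberg adjustment over the 11 ratios). Myl1 made up 55.8 ± 1.74% with Sardomozide and 45.9 ± 0.66% with DMSO. The share of Myl6b was 7.39 ± 0.449% with Sardomozide and 7.47 ± 0.266% with DMSO. The difference of −9.83 percentage points in the Myl4 share was −6.84 with exon union lengths. Essential chains summed to 0.897 ± 0.0223 of the regulatory chains with Sardomozide and 1.02 ± 0.0298 with DMSO, again without overlap (exact p = 0.1, adjusted 0.138). That difference of −0.125 was −0.0268 with exon union lengths in place of the longest coding transcript. Myl2 made up 0.451 ± 0.0896% of the regulatory chains with Sardomozide and 0.612 ± 0.0553% with DMSO, and these groups overlapped (exact p = 0.2, adjusted 0.22). The difference of −0.161 percentage points was −0.102 with exon union lengths.

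The 6 light chains together were 4.16 ± 0.317 times the sarcomeric heavy chains with Sardomozide and 4.21 ± 0.177 times with DMSO, per length (exact p = 0.8). The groups overlapped, and the difference of −0.053 turned to 0.119 without Sardomozide replicate 1, to 0.00425 without DMSO replicate 2 and to 0.0426 with exon union lengths, and it was −0.00841 for counts not divided by length. The kinases summed to 26.9, 24.6 and 26.9 CPM per kb in the Sardomozide libraries, against 39.5, 39.1 and 41.5 in the DMSO libraries. Mylk3 made up 7.44 ± 1.33% of that sum with Sardomozide and 11.4 ± 1.14% with DMSO, and the share of Mylk was 20.9 ± 1.15% with Sardomozide and 15.1 ± 0.875% with DMSO. The Mylk3 shares did not overlap (exact p = 0.1, adjusted 0.138).

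Set against Mylk in the same library, the kinases of striated muscle were lower with Sardomozide, with log2 differences of −0.52 for Mylk2, −1.10 for Mylk3 and −0.50 for Mylk4. The log2 difference of Mylk3 set against Mylk2 was −0.59, and that of Myl4 set against Myl1 was −0.62. Of 6 log2 ratios chosen after the values were seen, these 5 did not overlap between the groups (exact p = 0.1 for each, adjusted 0.138). They pair genes whose changes were already known, so their separation repeats the single-gene results and adds no support to them. The adjustment over the 11 ratios counted these 6 together with the planned ones. The groups overlapped for the sixth, the log2 ratio of Myl2 to Mylpf, which was −7.80 ± 0.275 with Sardomozide and −7.35 ± 0.133 with DMSO (exact p = 0.2, adjusted 0.22).

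**Figure D3:**
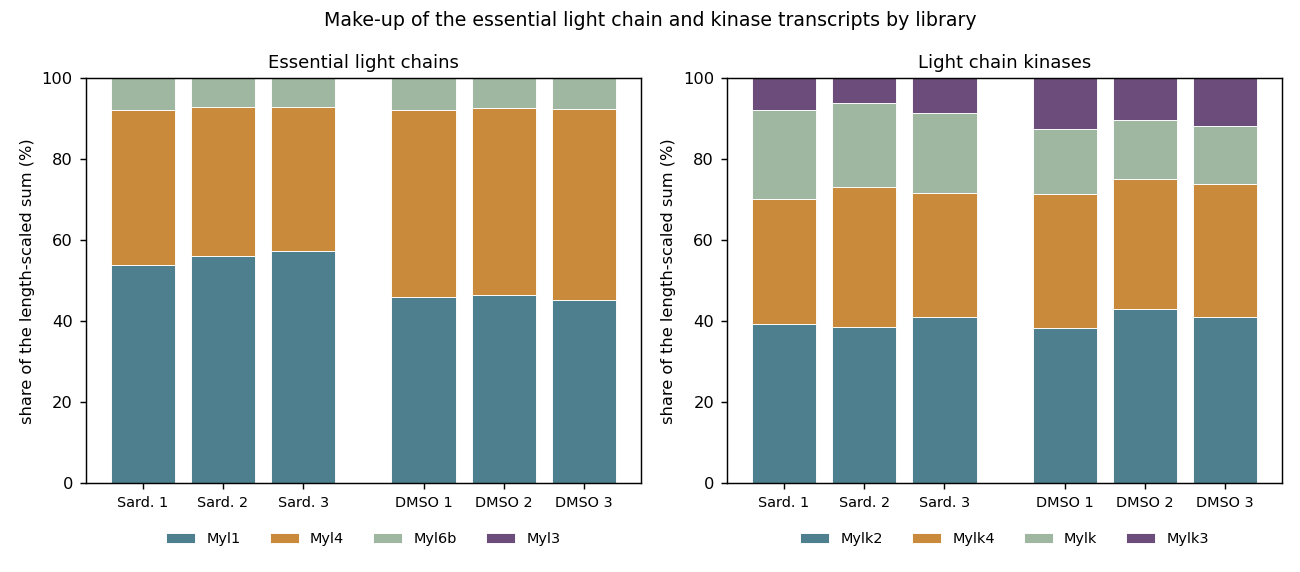
Share (%, vertical axis from 0 to 100) of each gene in the length-scaled sum of the essential light chains (left panel) and of the light chain kinases (right panel), as stacked bars for the 3 Sardomozide and the 3 DMSO libraries. Myl4 holds 35.5% to 38.1% with Sardomozide and 46.2% to 47.2% with DMSO, and Mylk3 holds 5.97% to 8.54% with Sardomozide and 10.2% to 12.4% with DMSO. Myl3 is too low to be seen.

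Of 6 listed light chains outside the 10 genes, 4 were tested, all of smooth muscle and non-muscle myosin. Of these 3 fell, against 8.45% lower among all genes tested: Myl9 (145 ± 12.4 CPM with Sardomozide and 176 ± 4.56 CPM with DMSO, SD, n = 3 each; log2 fold change −0.28 ± 0.053, edgeR adjusted p = 0.00112), Myl12a (−0.16 ± 0.047, 0.0257) and Myl6 (−0.13 ± 0.043, 0.0447). Myl12a lost its call without Sardomozide replicate 2 or 3 or DMSO replicate 1, 2 or 3 (adjusted p = 0.0583, 0.136, 0.0704, 0.0947 and 0.0759). Myl6 lost it without the same libraries (adjusted p = 0.0867, 0.133, 0.116, 0.193 and 0.0642), so that 1 of the 4 fell in each of those fits. Myl12b did not pass (−0.066 ± 0.059, edgeR adjusted p = 0.50). Myl7, the atrial regulatory chain, had 0 counts, and Myl10 was too low to be tested. The median log2 fold change of the 4 was −0.14. Myl6 lies directly beside Myl6b on the same strand of chromosome 10, and how reads between them were counted is unknown.

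The sarcomeric heavy chains carry the muscle light chains. Of 9 tested sarcomeric heavy chains 4 passed and all 4 fell, against 8.45% lower among all genes tested. Among the 4 were Myh6 (14.3 ± 3.74 CPM with Sardomozide and 31.5 ± 2.31 CPM with DMSO; log2 fold change −1.13 ± 0.16, edgeR adjusted p = 0.00292), Myh2 and Myh8 (−0.59 ± 0.07 and −0.63 ± 0.056). The fourth, Myh7, the slow and ventricular chain that pairs with Myl2 and Myl3, had 204, 149 and 124 CPM in the Sardomozide libraries, against 326, 352 and 322 CPM in the DMSO libraries (log2 fold change −1.06 ± 0.21, edgeR adjusted p = 0.0395). It falls outside the naming rule and was chosen after its values were seen. Its call was lost without Sardomozide replicate 2 (adjusted p = 0.119) and without DMSO replicate 1, 2 or 3 (0.126, 0.121 and 0.118). Myh3, the embryonic chain, had 4359 ± 424 CPM with Sardomozide and 4156 ± 191 CPM with DMSO and did not pass. Of 3 tested non-muscle and smooth muscle heavy chains 1 passed, against 16.3% of all genes tested. It was Myh10, which rose (0.16 ± 0.049, edgeR adjusted p = 0.0246). Its call did not hold without Sardomozide replicate 1 or 2 or DMSO replicate 2 or 3 (adjusted p = 0.0536, 0.0745, 0.104 and 0.131), and without DMSO replicate 2 another of the 3, Myh9, fell.

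Myosin phosphatase removes the phosphate on the regulatory chain. Of 6 tested subunits and inhibitors 1 passed, and it rose, a share close to the 16.3% of all genes tested that changed. It was Ppp1cb, the catalytic subunit, with 237, 231 and 242 CPM in the Sardomozide libraries, against 188, 189 and 197 CPM in the DMSO libraries (log2 fold change 0.31 ± 0.041, edgeR adjusted p = 3.98e-05). Without Sardomozide replicate 3, 2 of the 6 rose. Of 10 tested kinases that can phosphorylate regulatory chains outside the Mylk family, 2 rose, 2 fell and 6 did not pass. Among all genes tested 7.88% were higher and 8.45% lower. Dapk2, a calmodulin-dependent death-associated kinase, rose (155 ± 4.998 CPM with Sardomozide and 120.2 ± 4.64 CPM with DMSO; 0.37 ± 0.045, edgeR adjusted p = 1.39e-05). Dapk3, the other kinase that rose, lost its call without DMSO replicate 1 (adjusted p = 0.0652), which leaves 1 rise. Cdc42bpa and Rock2, kinases that act on the actin and myosin cytoskeleton, fell (−0.32 ± 0.043 and −0.18 ± 0.043, edgeR adjusted p = 4.29e-05 and 0.00738), and Rock2 lost its call without Sardomozide replicate 3 (adjusted p = 0.051). The medians of the phosphatase and kinase lists were 0.10 and −0.03 on the log2 scale.

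Calmodulin carries the calcium signal to the Mylk kinases. Of 13 tested calmodulins and calmodulin-dependent kinases 4 passed and all 4 fell, against 8.45% lower among all genes tested. The median log2 fold change over the 13 was −0.13. Camk1g fell by 0.48 on the log2 scale (15.7 ± 1.03 CPM with Sardomozide and 22.0 ± 1.99 CPM with DMSO; edgeR adjusted p = 0.000864). Camk2b fell by 0.26 (edgeR adjusted p = 0.0126), and it lost its call without Sardomozide replicate 3 or DMSO replicate 2 or 3 (adjusted p = 0.0575, 0.0682 and 0.0742). Without Sardomozide replicate 3 or DMSO replicate 2 the count of falls was 2 and 1. Of 4 myosin chaperones 1 rose, against 7.88% higher among all genes tested. It was Hsp90aa1 (0.13 ± 0.043, edgeR adjusted p = 0.0461), a call that did not hold without Sardomozide replicate 1 or 3 or DMSO replicate 1, 2 or 3 (adjusted p = 0.126, 0.0618, 0.091, 0.0806 and 0.22). Without Sardomozide replicate 2, 2 chaperones rose.

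Of 9 transcription factors that act on muscle promoters, 4 rose and 1 fell, against 7.88% higher and 8.45% lower among all genes tested. Myf6, a myogenic factor of mature fibres, had 0.466, 0.584 and 1.06 CPM in the Sardomozide libraries, against 4.49, 3.46 and 3.79 CPM in the DMSO libraries (log2 fold change −2.49 ± 0.29, edgeR adjusted p = 6.42e-06). Mef2a and Six4 rose by 0.34 and 0.29 on the log2 scale (edgeR adjusted p = 9.67e-06 and 0.000359). Without Sardomozide replicate 1, 3 of the 9 fell. The median of this list was −0.03 on the log2 scale, and no relation between these factors and the light chain and kinase genes was tested.

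**Figure D4:**
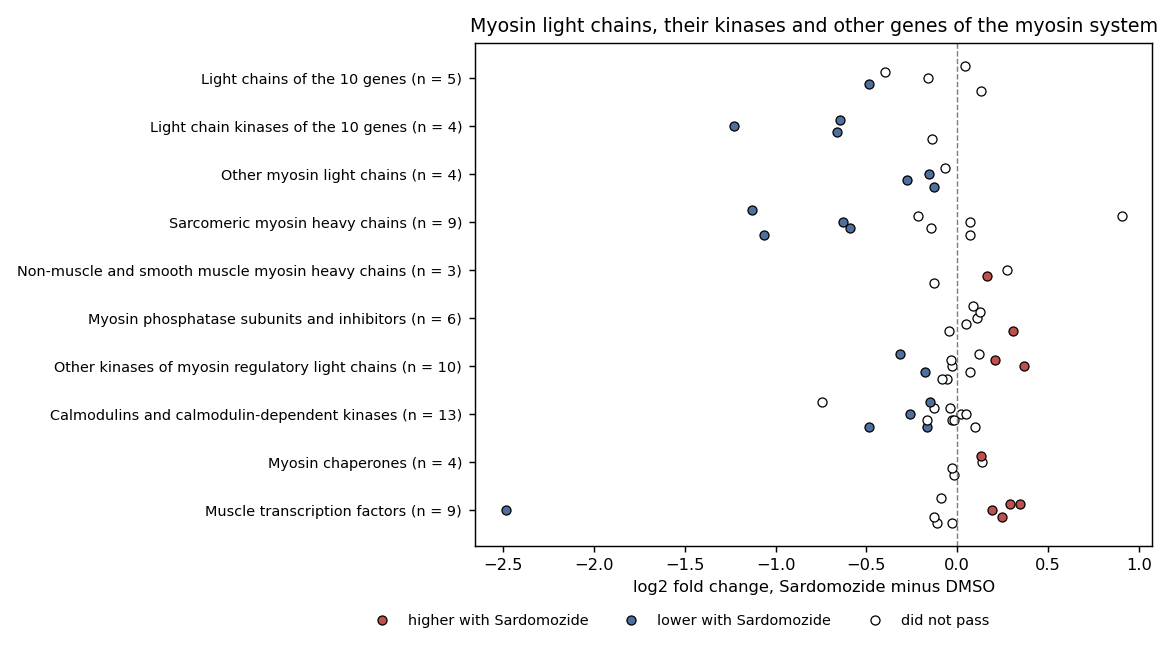
Log2 fold change (Sardomozide minus DMSO, horizontal axis) of each tested gene, with the light chains and kinases of the 10 genes in the top rows and the other lists below them. Red points rose and blue points fell at an adjusted p under 0.05, open points did not pass. The kinase row holds 3 of 4 genes that fell, and the point farthest to the left is Myf6 at −2.49.

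The genes whose scaled values followed Myl4 and Mylk3 most closely were sought among the 10623 genes whose mean log2 CPM reached 2, by the root mean square difference of log2 CPM centred on the mean of the 6 libraries. For Myl4 they were Fchsd1, Npnt, which encodes the matrix protein nephronectin, and Mustn1, with differences of 0.044, 0.0487 and 0.0581. Their log2 fold changes were −0.45, −0.48 and −0.44. For Mylk3 they were Myot, which encodes the Z-disc protein myotilin, Il20rb and Hdac9, a class IIa deacetylase gene, with differences of 0.177, 0.184 and 0.191. Their log2 fold changes were −1.13, −1.15 and −1.10. Myot had 19.3 CPM with Sardomozide and 42.1 CPM with DMSO on average. The ranking rests on 6 libraries in 2 groups and says nothing of shared function.

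Markers of other cell types were read beside these results. The 2 myoblast markers, Pax7 and Myf5, did not pass the test and summed to 97.97 to 112 CPM with Sardomozide and 96.3 to 102 CPM with DMSO. Of 5 fibroblast markers 3 were tested and 1 fell, Dcn (log2 fold change −0.77), against 8.45% lower among all genes tested. The fibroblast list summed to 2227 to 3072 CPM with Sardomozide and 2555 to 3101 CPM with DMSO, nearly all of it Col1a1. Of 4 endothelial and leukocyte markers, Ptprc and Adgre1 had 0 counts, and the list stayed at or below 0.497 CPM with Sardomozide and 0.738 CPM with DMSO. The part of these markers in the results was not tested.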

How the data were processed

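Total RNA of the 6 myotube libraries was sequenced as paired reads of 150 bases, per the labels' protocols. The authors deposited raw read counts per gene symbol, 1 table per library. STAR, StringTie and DESeq2 are named in the submitters' processing notes, with the builds GRCm38 and mm10. The sources used here give no versions, annotation, strand use or handling of multiply matching reads.

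Low counts were removed with filterByExpr (minimum count 10, total 15). The remaining 13076 genes were scaled by TMM and tested two-sided with edgeR 4.0.16 (R 4.3.3), by robust quasi-likelihood with treatment alone in the model, and Benjamini-Hochberg adjustment covered all of them (threshold 0.05). CPM are TMM-scaled, with SDs over 3 libraries. The SE of a log2 fold change is its size divided by the root of F. Lengths and gene coordinates are from GENCODE M21 (GRCm38). Ratios were compared by exact permutation (scipy 1.17.1). Alternatives used DESeq2 1.42.0, limma-voom (limma 3.58.1), other scalings, filters and thresholds, a replicate block and each library left out. The steps were tested on simulated counts.

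Replicates differed beyond sampling noise (chi-square per degree of freedom 9.06 to 16.1 among Sardomozide and 5.45 to 6.88 among DMSO libraries), so none was merged. Genes and lists were chosen with earlier results of these data known. From each list the text names up to 3 called genes, by smallest adjusted p, and 1 gene that this rule names is not reported here. For the light chain and the kinase that changed most, the 3 most similar genes are named, leaving out predicted genes, clones and pseudogenes.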

Additional observations from a re-analysis of the deposited data

How the results depend on the processing

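The falls of Myl4, Mylk2, Mylk3 and Mylk4 kept their direction and passed under all 14 alternatives each, while Mylpf passed under 0 of 14. At an adjusted p under 0.01, 501 genes were higher and 578 lower, and the lists then held 0 rises among non-muscle and smooth muscle heavy chains, 1 among the other regulatory chain kinases and 0 among chaperones, with 1 fall among the other light chains and 1 among the calmodulins. Of the 10 genes, 1 rose (Myl1) with DESeq2, limma-voom or no low-count filter. Non-muscle and smooth muscle heavy chains showed 1 fall with no scaling factors, DESeq2, limma-voom or no low-count filter. Chaperones showed 2 rises with no low-count filter, and 0 with the stricter filter or without robust estimation. The light to heavy chain ratio difference turned to 0.0426 with exon union lengths, a choice added after the data were seen. Under that choice the essential to regulatory difference was −0.0268, that of the Myl4 share −6.84 and that of the Myl2 share −0.102. The cause of these changes was not tested.

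With 1 library left out, genes called higher ran from 620 to 927 and lower from 706 to 1025, with fewer samples in each fit. The 10 genes showed 0 to 1 rises and 4 to 7 falls. Rises ran from 0 to 2 for chaperones, 1 to 2 for phosphatase subunits, 0 to 1 for non-muscle and smooth muscle heavy chains and 1 to 2 for the other kinases. Falls ran from 1 to 3 for the other light chains, 0 to 1 for non-muscle and smooth muscle heavy chains, 1 to 2 for the other kinases, 1 to 5 for calmodulins, 3 to 5 for sarcomeric heavy chains and 1 to 3 for transcription factors. The light to heavy chain difference ran from −0.192 to 0.119.

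Replicate numbers appear in the labels of both groups, but same-numbered libraries did not deviate together (correlations 0.0219, −0.0233 and −0.0178). Pairs with unlike numbers ran from −0.0496 to 0.0712. These correlations show no strong shared effect, but they cannot tell whether same-numbered libraries were handled together. With the replicate block, 855 genes were higher and 965 lower, the 10 genes showed 0 rises and 4 falls, chaperones 0 rises, the other light chains 1 fall and the sarcomeric heavy chains 3 falls, without Myh7 (edgeR adjusted p = 0.0757). Depth limits Myl3, which had 10 counts at most.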
